A study of Rattus norvegicus with 24 samples.

Results

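Glutamate and GABA receptor subunits were followed through the brain, liver, thymus and spleen of rats as 48 rows of a table of 32883 gene counts. They were chosen by gene name: the AMPA (Gria), NMDA (Grin), kainate (Grik), delta (Grid) and metabotropic (Grm) glutamate receptors, and the GABA-A, rho (Gabr) and GABA-B (Gabbr) receptors. Of these rows, 47 are subunit genes and 1, a separate entry named for the 3' end of Grik4, had 0 counts in all 24 libraries. The animals were Sprague-Dawley rats aged 7 months, either SAM-exposed (SAM) or sham-exposed (Sham), with 3 libraries per group and tissue. The series title speaks of PCB (polychlorinated biphenyl) exposure, and the labels give neither dose, duration nor what SAM stands for. SAM animals 1, 2 and 3 were compared with Sham animals 13, 15 and 16 in brain and with Sham animals 13, 14 and 15 in liver. In thymus and spleen, SAM animals 1, 3 and 5 were compared with Sham animals 14, 15 and 17. The labels do not state the brain region, nor whether a number shared between tissues stands for the same rat.

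Glutamate is the main excitatory transmitter of the brain and GABA the main inhibitory one. AMPA, NMDA, kainate and GABA-A receptors are ion channels assembled from several subunits, whereas the metabotropic glutamate receptors and the GABA-B receptor act through G proteins. Which subunits a neuron makes depends on its type and brain region. Some PCB congeners are ligands of the aryl hydrocarbon receptor (AhR), a transcription factor that binds DNA at a GCGTG core.

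The 24 libraries held 12.9 to 20.1 M (mega) counts each. Levels are TMM-scaled counts-per-million (CPM) within each tissue, and log2 fold changes are SAM minus Sham with their standard error (SE). Each labelled tissue carried its markers: 7 neuronal genes summed to between 4955 and 7735 CPM in brain, 5 hepatocyte genes to between 126400 and 160400 CPM in liver, 6 thymocyte genes to between 7409 and 8937 CPM in thymus, and 4 B cell genes to between 1389 and 1780 CPM in spleen.

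Brain libraries of SAM animals 1 and 2 stood apart from the other 4, which bears on every brain value that follows. A principal component with 70.3% of the variance placed them at -60.8 and -49.0, and SAM 3 at 24.7, inside the Sham range of 22.2 to 32.4. On the next component SAM 3 stood apart, at -30.9, with SAM 1 at 1.55, SAM 2 at -0.324 and Sham at 4.93 to 15.8. SAM 3 also exceeded Sham in the sums of 3 erythroid markers (188 against 55.9 to 80.2 CPM) and 4 endothelial markers (320 against 200 to 244 CPM). The 7 astrocyte markers summed to 3278, 3867 and 4352 CPM in SAM 1, 2 and 3, against 3511 to 3656 CPM in Sham. The 6 microglia markers summed to 132.8, 242.7 and 243.5 CPM against 170.7 to 198 CPM. The 9 genes marking the olfactory bulb summed to 869 CPM in SAM 1 and 848 CPM in SAM 2, against 47.0 CPM in SAM 3 and 26.5 to 41.7 CPM in Sham. All 6 of these markers that were tested had positive log2 fold changes (median 3.95), 4 of them with every SAM library above every Sham library. The 10 inhibitory neuron markers summed to 2469, 2160 and 663 CPM in SAM 1, 2 and 3, against 747 to 836 CPM in Sham. Gad1 made up most of the difference in SAM 1 and SAM 2, and the 10 markers divided: 6 had positive log2 fold changes, and 4 (Lhx6, Sst, Pvalb and Vip) negative ones, 2 of these with all SAM libraries lower. The 8 markers of forebrain excitatory neurons summed to 1600, 1928 and 3838 CPM, against 3268 to 3642 CPM, and 8 of the 8 had negative log2 fold changes. The 9 striatal markers summed to 344, 318 and 328 CPM against 316 to 636 CPM, and 7 neuronal markers to 4955, 5016 and 6907 CPM against 7079 to 7735 CPM. The 7 oligodendrocyte markers summed to 5834, 5122 and 4306 CPM against 5775 to 6915 CPM. In bulk tissue, fewer cells of a type and less RNA per cell cannot be told apart, and the part of these marker differences in the receptor values was not tested.

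**Figure D1:**
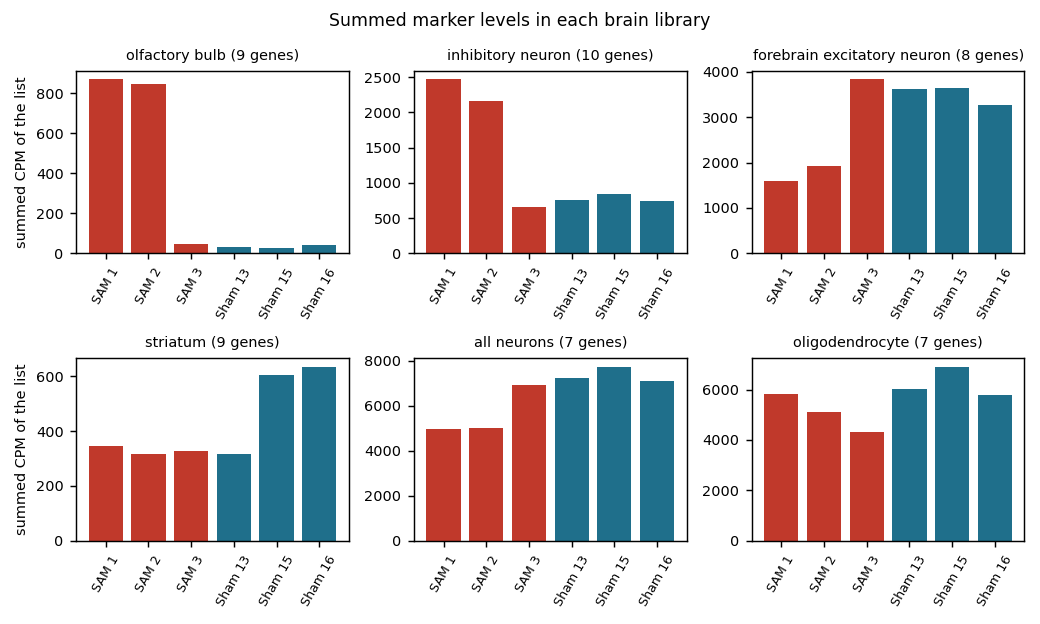
Summed CPM (vertical axes) of 6 marker lists in each brain library, SAM in red and Sham in blue. The olfactory bulb list reaches 869 and 848 CPM in SAM 1 and SAM 2 and at most 47.0 CPM in the other 4 libraries.

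Across the brain receptor subunits, lower values in SAM than in Sham were the more frequent, Gabra3, Gabrb2, Grik4, Grm6 and Grm7 among them, but none passed the test. Of the 47 genes, 41 passed the low-count filter. The other 6 (Gabra6, Gabre, Gabrp, Gabrr1, Gabrr3 and Grin3b) had too few counts. edgeR's quasi-likelihood test called 0 of 41 members at an adjusted p of 0.05, as it called 0.00% of all 15126 genes. At an unadjusted p under 0.05 there were 13 members, beside 20.5% of genes, 3 with higher values (background 11.9% of genes) and 10 with lower values (background 8.61%). In 11 members, or 26.8%, every SAM library lay below every Sham library, against 12.2% of all genes, and in 1 member, Grin2c, every SAM library lay above, or 2.44% against 11.6%. Over both directions, 23.8% of genes had groups that did not overlap. The median log2 fold change was -0.16 over the 41 members and 0.01 over all genes, and 65.9% of members were negative against 48.6% of genes. All subunit genes together took 0.563, 0.585 and 0.588% of the counts in SAM 1, 2 and 3 and 0.613, 0.601 and 0.615% in Sham 13, 15 and 16.

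The outcome turned on SAM 3. Without it, 22 of the 41 members were called beside 37.8% of all genes, 7 of them higher (background 18.2%) and 15 lower (19.6%), and 31 had groups that did not overlap, beside 62.7% of all genes. With SAM 1 and SAM 2 both left out, SAM 3 stood alone against Sham and was assumed to vary like the Sham libraries. In that fit 0 members were called, beside 0.00661% of genes, and 21 had groups that did not overlap, beside 55.3% of genes. With all 6 libraries, DESeq2 called 1 member, Gabra3, at an adjusted p of 0.0460 and a log2 fold change of -0.65, beside 3.23% of genes (0.873% lower). An edgeR fit over all 24 libraries called 1 member, Grm4, at an adjusted p of 0.0490 and a log2 fold change of 1.37, beside 3.29% of genes (2.62% higher).

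**Figure D2:**
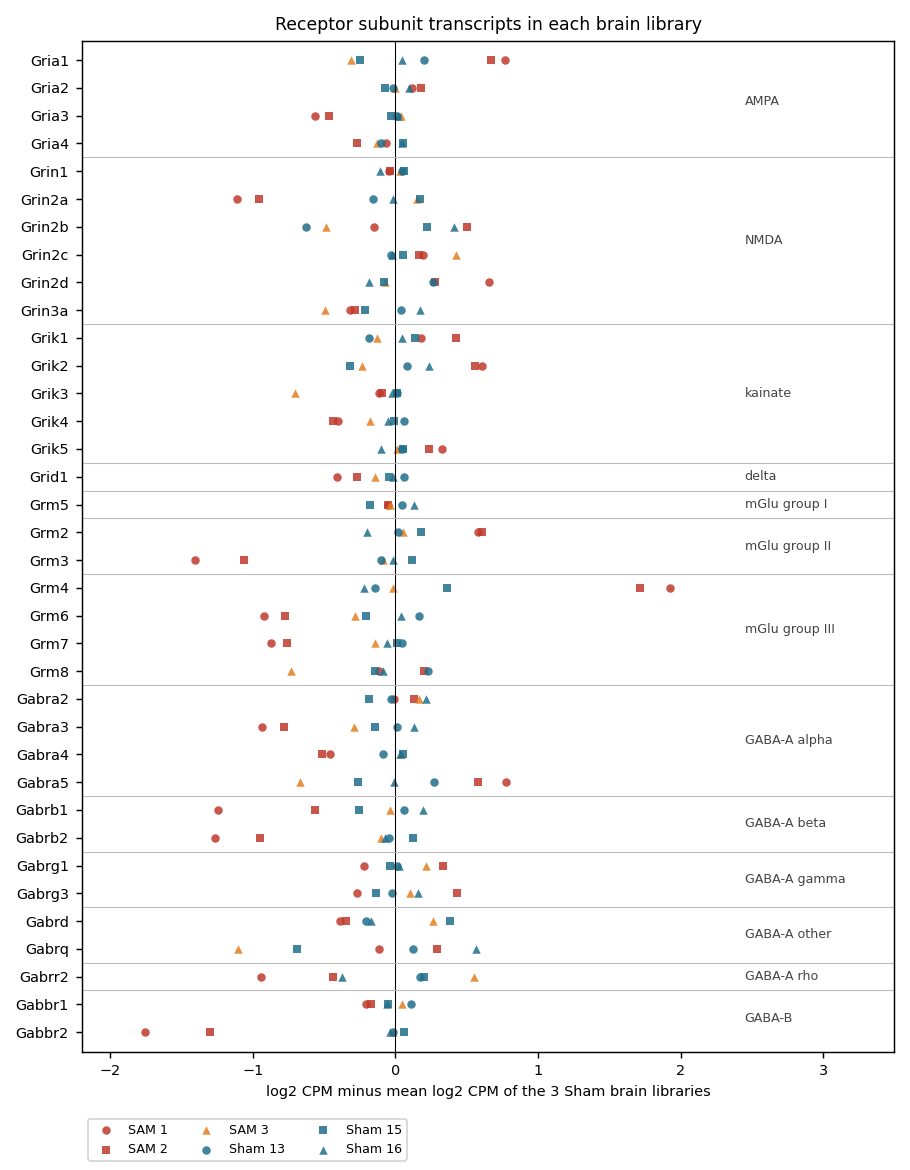
Log2 CPM of each tested subunit in each brain library, minus the mean of the 3 Sham libraries (horizontal axis), with the subunits reported here grouped by class (rows). SAM 1 and SAM 2 lie together and away from 0 for subunits such as Grm4 and Gabbr2, while SAM 3 lies among the Sham libraries there.

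AMPA receptors carry most fast excitation. Of the 4 subunits, 2 had negative and 2 had positive log2 fold changes, and in none were the groups apart. Gria3 had the lowest p of the class. It stood at 317, 339.5 and 483 CPM in SAM 1, 2 and 3 and at 473, 459.9 and 474 CPM in Sham 13, 15 and 16 (log2 fold change -0.30 ± 0.17 SE, adjusted p = 0.315). SAM 1 and SAM 2 were below all Sham libraries and SAM 3 above them. Gria1, a subunit tied to activity-dependent synaptic strengthening, went the other way, with 251, 234 and 118 CPM in SAM against 169, 124 and 152 CPM in Sham (0.44 ± 0.28, adjusted p = 0.372). SAM 1 and SAM 2 lay above every Sham library and SAM 3 below every one. Gria2, whose edited form keeps calcium out of the channel, ranged from 859 to 978 CPM in SAM and from 817 to 919 CPM in Sham, and Gria4 from 119 to 137 CPM and from 133 to 149 CPM. Both overlapped.

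NMDA receptors pair the obligatory Grin1 subunit with Grin2 or Grin3 subunits. Grin1 ranged from 629 to 662 CPM in SAM and from 602 to 676 CPM in Sham, a log2 fold change of -0.02 ± 0.09. Grin2c, a subunit of cerebellar granule cells and astrocytes, was the only one of the 41 members with every SAM library above every Sham library, at 102, 99.8 and 119.5 CPM against 87.2, 92.2 and 87.5 CPM (0.27 ± 0.09, adjusted p = 0.224). SAM 3 was the highest of the 6, as it was in the sum of astrocyte markers, where SAM 1 was the lowest. The part of astrocyte content in the Grin2c values was not tested. Grin3a, which lowers the calcium permeability of the channel, was at 9.78, 10.1 and 8.67 CPM in SAM and 12.6, 10.5 and 13.8 CPM in Sham (-0.37 ± 0.14, adjusted p = 0.228), with the groups apart by the narrow gap between SAM 2 and Sham 15. Grin2a, the subunit that dominates in the mature forebrain, was at 49.2, 54.7 and 118 CPM in SAM and 95.5, 119.7 and 105 CPM in Sham. Only SAM 1 and SAM 2 were low (-0.53 ± 0.33, adjusted p = 0.359). Grin2b spread widely within both groups, from 21.6 to 42.9 CPM and from 19.5 to 40.2 CPM. Grin2d ranged from 8.91 to 14.8 CPM in SAM and from 8.24 to 11.3 CPM in Sham.

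Kainate receptors combine Grik1, Grik2 or Grik3 with the high-affinity subunits Grik4 and Grik5. Grik4 was at 27.2, 26.5 and 31.8 CPM in SAM and 37.6, 35.7 and 34.8 CPM in Sham (-0.34 ± 0.10, adjusted p = 0.221), so all 3 SAM libraries were lower. Grik3 was also lower in every SAM library, but here SAM 3 was the lowest, with 43.3, 44.0 and 28.8 CPM against 47.4, 47.3 and 46.3 CPM (-0.28 ± 0.16, adjusted p = 0.340). With SAM 3 alone against Sham, Grik3 had a log2 fold change of -0.71 ± 0.11 and an adjusted p of 0.328. Grik2 was at 84.6, 81.8 and 47.2 CPM against 58.8, 44.5 and 65.3 CPM. Grik1 ranged from 11.3 to 16.6 CPM in SAM and from 10.8 to 13.6 CPM in Sham, and Grik5 from 216 to 269 CPM and from 200.04 to 223 CPM.

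Delta receptors bind cerebellins and organise synapses. In Grid1 all SAM libraries were lower. It was at 28.6, 31.5 and 34.4 CPM in SAM and 39.6, 36.8 and 37.6 CPM in Sham (-0.27 ± 0.09, adjusted p = 0.222). The 10 cerebellar markers summed to 124 to 179 CPM in SAM and 131 to 169 CPM in Sham.

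The metabotropic receptors of group III (Grm4, Grm6, Grm7 and Grm8) divided. Grm4 had the highest log2 fold change of all members, at 88.9, 76.8 and 23.0 CPM in SAM and 21.0, 29.9 and 19.98 CPM in Sham (1.42 ± 0.47, adjusted p = 0.222). The difference lay wholly in SAM 1 and SAM 2, since SAM 3 lay within the Sham range. Grm7 was at 20.8, 22.6 and 34.6 CPM against 39.5, 38.5 and 36.8 CPM (-0.56 ± 0.19, adjusted p = 0.222), with all SAM libraries lower. Grm6, known from bipolar cells of the retina, was at 2.61, 2.91 and 4.13 CPM against 5.69, 4.36 and 5.20 CPM (-0.67 ± 0.23, adjusted p = 0.222) and was likewise lower in all 3. Grm8 ranged from 12.5 to 23.9 CPM in SAM and from 18.8 to 24.3 CPM in Sham, with SAM 3 the lowest.

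In group I of the metabotropic receptors, which signals through Gq, Grm5 ranged from 77.9 to 78.7 CPM in SAM and from 71.5 to 88.5 CPM in Sham. In group II, which signals through Gi, Grm2 was at 118, 120.1 and 81.7 CPM in SAM and 79.7, 89.1 and 68.4 CPM in Sham (0.43 ± 0.17, adjusted p = 0.238). Grm3 had 41.0, 52.0 and 103 CPM against 101, 118 and 108 CPM (-0.75 ± 0.32, adjusted p = 0.253). Grm2 was thus high and Grm3 low in SAM 1 and SAM 2, while SAM 3 was inside the Sham range for both.

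GABA-A receptors are mostly built from alpha, beta and gamma subunits. In the beta subunit Gabrb2 all SAM libraries were lower, at 37.6, 46.9 and 84.3 CPM in SAM against 87.6, 98.5 and 86.0 CPM in Sham (-0.69 ± 0.29, adjusted p = 0.241). SAM 1 and SAM 2 were well below and SAM 3 just below the lowest Sham library.

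Gabra3 had the lowest p of the 41 members (unadjusted p = 0.00844), at 43.6, 48.4 and 68.2 CPM in SAM and 84.2, 75.5 and 91.2 CPM in Sham (-0.65 ± 0.18, adjusted p = 0.221). All SAM libraries were lower. Gabra5, a mainly extrasynaptic subunit prominent in hippocampus, was at 101, 88.3 and 37.0 CPM against 71.3, 49.2 and 58.7 CPM, so SAM 1 and SAM 2 lay above and SAM 3 below all Sham libraries. Gabra2 ranged from 93.8 to 106 CPM in SAM and from 83.0 to 109.6 CPM in Sham. Gabra4 was at 119, 115 and 168 CPM against 154 to 169.8 CPM, and Gabrb1 at 8.04, 12.9 and 18.6 CPM against 16.1 to 21.9 CPM. The gamma subunits Gabrg1 and Gabrg3 overlapped, with Gabrg1 from 35.5 to 52.3 CPM in SAM and 40.5 to 42.2 CPM in Sham, and Gabrg3 from 4.40 to 7.26 CPM and 4.85 to 5.97 CPM. Gabrd, the subunit of tonic inhibition, ranged from 66.1 to 104 CPM in SAM and from 74.9 to 113 CPM in Sham (-0.15 ± 0.23, adjusted p = 0.713).

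The other GABA-A and rho subunits were scarce. Gabrq ranged from 0.243 to 0.833 CPM in SAM and from 0.364 to 1.03 CPM in Sham. Gabrr2, a rho subunit best known from retina, was at 0.761, 1.13 and 2.35 CPM in SAM and 1.79, 1.82 and 1.18 CPM in Sham (-0.21 ± 0.44, adjusted p = 0.783). Gabra6, the alpha subunit of cerebellar granule cells, had 1, 1 and 6 counts in SAM and 17, 10 and 7 in Sham, and was not tested.

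The GABA-B receptor needs both Gabbr1, which binds GABA, and Gabbr2, which carries the receptor to the surface and couples it to the G protein. Gabbr2 had the most negative log2 fold change of the 41 members, at 124, 170.1 and 414 CPM in SAM and 414, 437 and 408 CPM in Sham (-0.83 ± 0.42, adjusted p = 0.291). Only SAM 1 and SAM 2 were low. Gabbr1 ranged from 947 to 1130.5 CPM in SAM and from 1049.9 to 1178 CPM in Sham (-0.11 ± 0.11, adjusted p = 0.574).

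**Figure D3:**
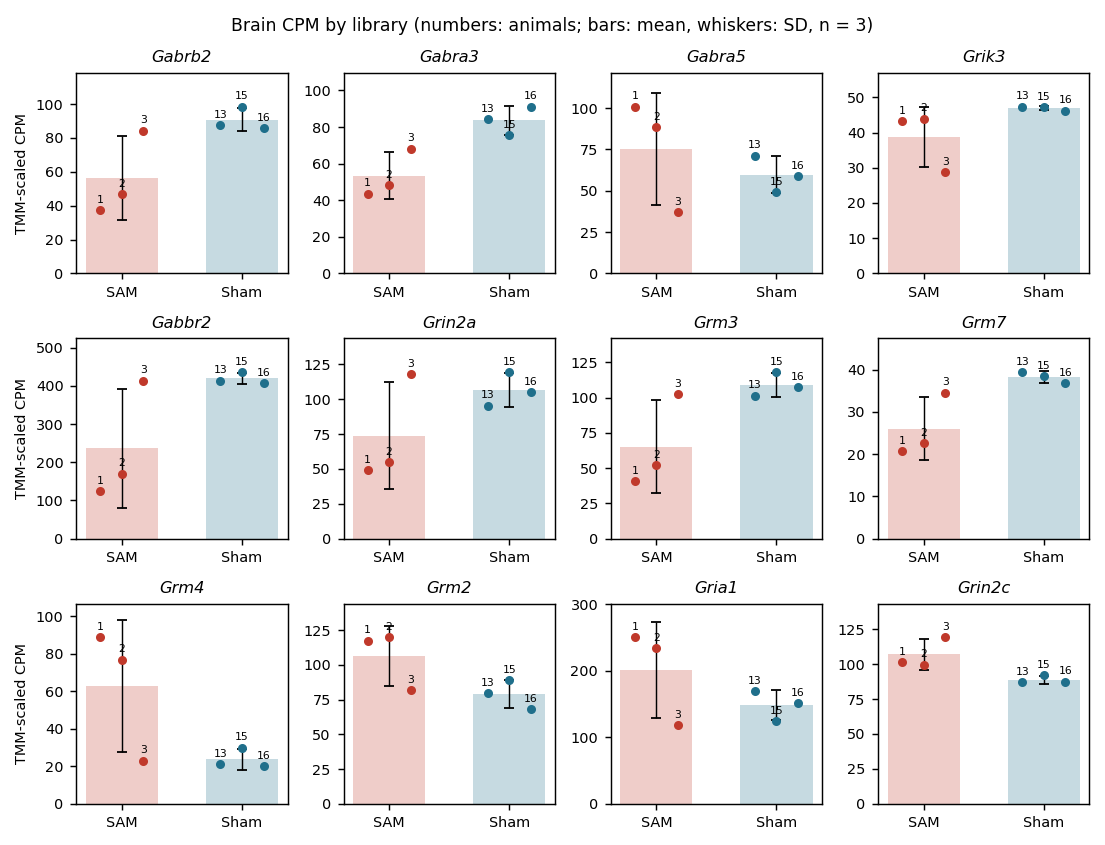
TMM-scaled CPM (vertical axes, from 0) of 12 subunits in each brain library. Points are libraries labelled by animal number, bars are means and whiskers SD (n = 3). For Gabbr2, Grin2a, Grm3 and Grm4, SAM 3 lies by the Sham points and SAM 1 and SAM 2 do not.

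Without SAM 3, the 7 members called higher by edgeR included Grm4 (log2 fold change 1.81), Gria1 (0.71), Gabra5 (0.66), Grm2 (0.59), Grik2 (0.56) and Grik5 (0.28). The 15 called lower included Gabbr2 (-1.51), Grm3 (-1.23), Gabrb2 (-1.10) and Grin2a (-1.04), followed by Gabrb1, Grm6, Gabra3, Grm7, Gria3, Gabra4, Grik4 and Grid1 (-0.89 to -0.34). The olfactory bulb and inhibitory marker sums given above separate the same SAM 1 and SAM 2 libraries from the rest. With SAM 3 alone, Grm4 was at -0.04 ± 0.24, Gabbr2 at -0.02 ± 0.10, Grm3 at -0.09 ± 0.12 and Grin2a at 0.14 ± 0.14. Gabra3 was at -0.29 ± 0.13, Grin3a at -0.51 ± 0.21 and Grin2c at 0.43 ± 0.09, none of them called.

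**Figure D4:**
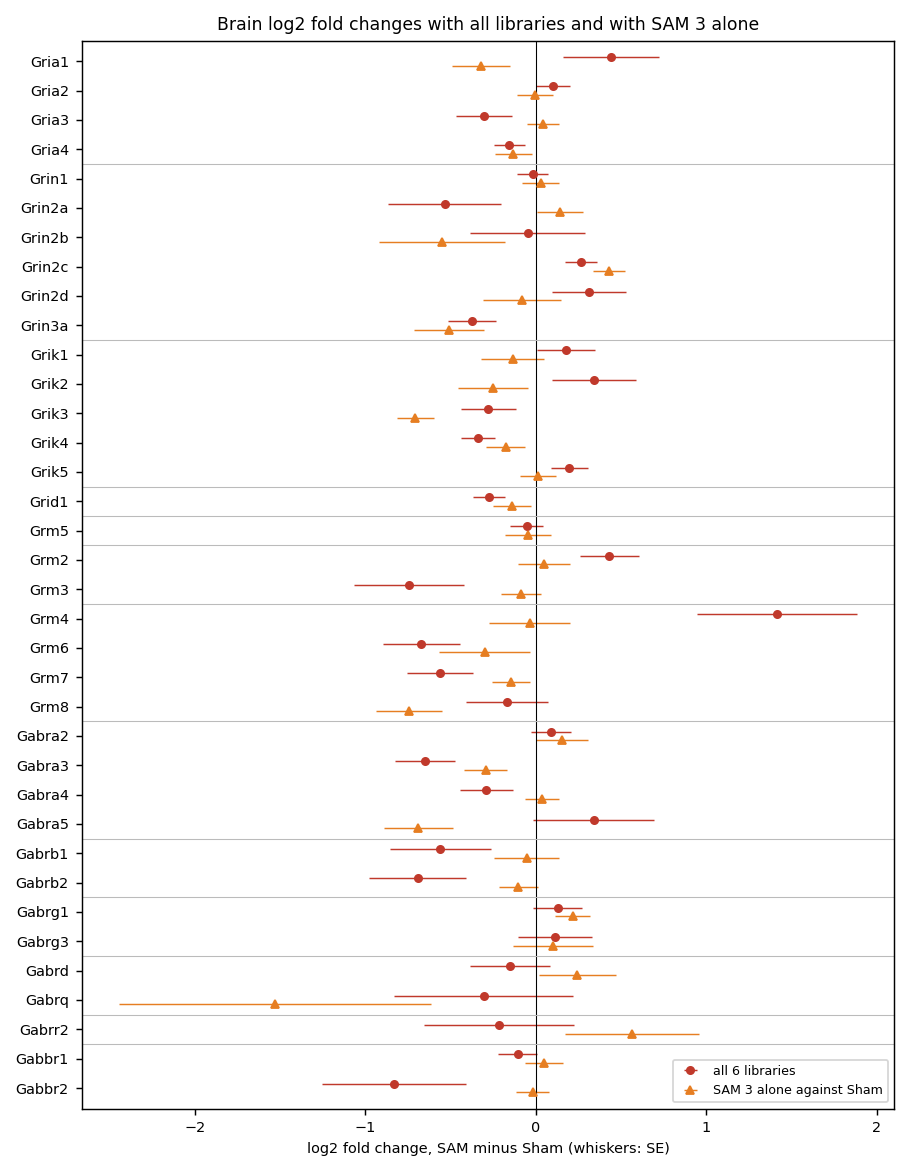
Log2 fold change in brain, SAM minus Sham (horizontal axis, whiskers SE), for the subunits reported here (rows, by class), with all 6 libraries (circles) and with SAM 3 alone against Sham (triangles). Grm4 moves from 1.42 to -0.04 and Gabbr2 from -0.83 to -0.02, while Grik3 moves from -0.28 to -0.71.

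Ratios of counts between related subunits were compared between libraries only, because counts are not per length. Gabbr2 over Gabbr1 was 0.131, 0.175 and 0.366 in SAM and 0.352 to 0.414 in Sham. Grm4 over Grm7 was 4.27, 3.40 and 0.665 against 0.532 to 0.777, and Grm2 over Grm3 was 2.87, 2.31 and 0.796 against 0.636 to 0.786. Grin2a over Grin2b was 1.80, 1.28 and 5.45 in SAM and 2.62 to 4.89 in Sham, which put SAM 3 above and the other SAM libraries below the Sham range. Gria1 over Gria3 was 0.791, 0.690 and 0.245 against 0.269 to 0.358, with SAM 3 below and the other SAM libraries above that range. In Grik2 over Grik3 the 3 SAM libraries lay together, at 1.95, 1.86 and 1.64 against 0.940 to 1.41, above every Sham library. The 2 subunits did not move alike, however. Grik2 lay above every Sham library in SAM 1 and SAM 2 only (84.6 and 81.8 CPM), and Grik3 was lowest in SAM 3 (28.8 CPM).

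Many GABA-A genes are neighbours in the genome. In the order of protein-coding genes of RefSeq (assembly GRCr8), Gabrb1, Gabra4, Gabra2 and Gabrg1 lie close together, with 1 other gene between them. Of these, 2 of 4 were negative (48.6% of all genes) and 0 had groups apart (23.8% of all genes). Gabra3 and Gabrq, which lie close to Gabre with 2 other genes between the 3, were both negative, and Gabra3 alone had its groups apart.

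Of the 47 genes, 30 had a promoter entry in the RefSeq tables. The 250 bases before the start are given for Gabrb2, Gabra3 and Grm7, in which every SAM library was lower, and for Gabbr2, which had the most negative log2 fold change. They are from GRCr8, 5′ to 3′ on the gene's strand: Gabrb2 at chr10:27439543-27439792 (plus), Gabra3 at chrX:155543871-155544120 (minus), Gabbr2 at chr5:66083696-66083945 (minus) and Grm7 at chr4:145286476-145286725 (plus). Capitals mark the AhR core GCGTG, or CACGC where it lies on the other strand.
Gabrb2: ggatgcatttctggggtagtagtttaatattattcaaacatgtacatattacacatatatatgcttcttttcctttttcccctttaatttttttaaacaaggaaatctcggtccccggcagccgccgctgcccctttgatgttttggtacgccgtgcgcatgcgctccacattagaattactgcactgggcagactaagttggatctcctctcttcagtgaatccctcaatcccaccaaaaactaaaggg
Gabra3: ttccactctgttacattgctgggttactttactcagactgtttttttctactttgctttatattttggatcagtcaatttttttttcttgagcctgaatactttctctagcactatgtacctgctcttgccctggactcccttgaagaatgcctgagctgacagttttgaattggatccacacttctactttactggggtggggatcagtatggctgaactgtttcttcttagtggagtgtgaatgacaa
Gabbr2: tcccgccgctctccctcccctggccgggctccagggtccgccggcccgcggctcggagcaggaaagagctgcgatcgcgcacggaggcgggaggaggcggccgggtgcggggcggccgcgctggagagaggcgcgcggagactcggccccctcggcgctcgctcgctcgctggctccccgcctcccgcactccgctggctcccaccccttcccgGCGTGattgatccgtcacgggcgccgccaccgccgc
Grm7: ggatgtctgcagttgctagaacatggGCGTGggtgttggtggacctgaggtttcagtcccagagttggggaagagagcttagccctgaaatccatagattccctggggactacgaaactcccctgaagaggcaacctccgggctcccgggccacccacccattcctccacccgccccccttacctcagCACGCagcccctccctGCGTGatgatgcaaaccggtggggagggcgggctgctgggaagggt
The core was found 3 times before Grm7, 1 time before Gabbr2 and 0 times before Gabrb2 and Gabra3. It was present in 9 of the 30 members (30%: Gabbr1, Gabbr2, Gabra4, Gabrd, Grik3, Grin1, Grin2d, Grin3a and Grm7) and in 25.9% of all 33469 windows of the same length, counting both strands. The cyclic AMP response element TGACGTCA was in 0 of 30 members and 1.59% of windows. The 9 letters TTCAGCACC, the left part of the element bound by the neuronal gene repressor REST, were in 0 of 30 and 0.305%. These matches describe letters in the windows only.

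Genes that make, load or clear the transmitters were also measured in brain, and edgeR called 0 of 17, while DESeq2 called 2 (Slc6a11 and Slc6a13; 3.23% of all genes). At an unadjusted p under 0.05, 5 had higher (11.9% of all genes) and 2 lower values (8.61%), and the median log2 fold change was 0.18 (0.01 over all genes). Gad1, which makes GABA, was at 1458, 1296 and 227 CPM in SAM and 243, 267 and 253 CPM in Sham (1.97 ± 0.61, adjusted p = 0.221). The GABA transporter Slc6a11 was at 198, 232 and 82.7 CPM against 63.6, 73.3 and 61.9 CPM (1.37 ± 0.35, adjusted p = 0.221), with every SAM library higher. Slc6a13, another GABA transporter, had a log2 fold change of 1.29 ± 0.36, also with SAM higher throughout (16.04 to 36.6 CPM against 7.48 to 15.04 CPM). Gad1 is itself one of the inhibitory neuron markers.

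Of 29 scaffold and auxiliary genes of glutamate receptors, edgeR called 0 and DESeq2 called 2 (Cacng5 and Homer2), beside 3.23% of all genes. There, 6 had higher and 0 lower values at an unadjusted p under 0.05, beside 11.9 and 8.61% of all genes, and the median log2 fold change was 0.02. Cacng5, an auxiliary subunit of AMPA receptors, was at 109, 95.2 and 17.4 CPM in SAM and 12.002, 12.1 and 13.7 CPM in Sham (2.56 ± 0.62, adjusted p = 0.221), so SAM 3 was only slightly above Sham. Cacng8, of the same family, was at 54.1, 57.7 and 46.3 CPM against 39.8 to 40.7 CPM (0.39 ± 0.10), and Cbln4, a cerebellin, at 8.64, 8.03 and 8.35 CPM against 5.41 to 6.91 CPM (0.47 ± 0.14). Both stood higher in all SAM libraries. Homer2, which links group I receptors to intracellular stores, was at 39.9, 35.8 and 13.6 CPM against 10.5 to 13.1 CPM. Of 7 scaffold genes of GABA receptors, 0 were called by edgeR or DESeq2 (0.00 and 3.23% of all genes). At an unadjusted p under 0.05, 1 was lower and 0 were higher (8.61 and 11.9% of all genes). In 2 of the 7, all SAM libraries were lower (12.2% of all genes).

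Outside the brain, few subunits were found. The low-count filter kept 4 of 47 in liver, 9 in thymus and 8 in spleen, while it kept 36.9, 45.7 and 44.2% of all rows there and 46.0% in brain. Gabbr1, Gabrr2, Gria3 and Grin2c were kept in all 3 of these tissues. Thymus and spleen shared Gria2, Grik2 and Grik5, thymus also kept Gabbr2 and Gabrq, and spleen kept Grin2d. In liver 27 subunits had 0 counts in all 6 libraries, in spleen 12 and in thymus 3 (Gabra6, Gabrb1 and Grin2b), which allows levels of up to 0.0312, 0.0292 and 0.0278 CPM (3 counts over the 6 libraries, counting error only). The 7 neuronal markers summed to 0.316 to 1.77 CPM in liver, 5.49 to 8.10 CPM in thymus and 27.5 to 34.4 CPM in spleen. Their part in the subunit values there was not tested.

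No member outside the brain passed the test between exposed and sham animals. edgeR called 0 of 4 members in liver, 0 of 9 in thymus and 0 of 8 in spleen, and 0.00% of genes in each. DESeq2 called 0 members, beside 2 of 12130 genes in liver, 93 of 15036 in thymus and 7 of 14530 in spleen. At an unadjusted p under 0.05 there were 0 members in liver (2.70% of genes), 1 in thymus (6.13%) and 0 in spleen (4.11%). Groups that did not overlap occurred in 0 of 4 in liver (10.8% of genes), 1 of 9 in thymus (11.9%) and 0 of 8 in spleen (9.22%). The thymus member was Grik2, with 1.48, 1.74 and 1.96 CPM in SAM 1, 3 and 5 and 2.73, 3.12 and 2.59 CPM in Sham 14, 15 and 17 (24, 31 and 31 counts against 54, 58 and 51). Its log2 fold change was -0.70 ± 0.21, with an unadjusted p of 0.0113 and an adjusted p of 0.616. All 3 SAM libraries were lower, as for 6.96% of genes, and the values rest on few counts. The 5 Schwann cell and nerve markers also summed lower in SAM thymus, at 18.4 to 21.9 CPM against 24.7 to 32.8 CPM. Of the 4 tested, 3 had negative and 1 a positive log2 fold change, and 1 had its groups apart. The 10 cerebellar markers summed lower as well (35.3 to 46.1 against 47.0 to 61.3 CPM), while the 7 neuronal markers overlapped (5.49 to 8.10 against 6.30 to 7.83 CPM). The part of nerve content in the Grik2 values was not tested.

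Gabbr1 was at 177, 193 and 207 CPM in SAM thymus and 231, 189 and 178 CPM in Sham thymus, and at 119, 125 and 144 CPM in SAM spleen and 119, 142 and 130.1 CPM in Sham spleen. In liver it was at 13.98, 13.3 and 9.92 CPM and 16.4, 13.7 and 10.5 CPM. Groups overlapped in all 3 tissues. Gria3 was at 82.5, 49.7 and 82.3 CPM in SAM thymus and 76.9, 51.3 and 62.6 CPM in Sham thymus, from 8.16 to 10.7 CPM in spleen and from 0.483 to 2.02 CPM in liver. Gabrr2 was at 8.28, 7.94 and 8.62 CPM in SAM spleen and 7.00, 7.57 and 9.65 CPM in Sham spleen, from 3.44 to 6.30 CPM in thymus and from 0.443 to 2.52 CPM in liver. Grik5 ranged from 2.64 to 3.48 CPM in thymus and from 3.34 to 5.21 CPM in spleen, and Gria2 from 1.07 to 2.68 CPM and from 3.06 to 4.62 CPM. Grin2c ranged from 0.678 to 2.47 CPM in thymus, from 0.959 to 2.05 CPM in spleen and from 0 to 1.28 CPM in liver. Grin2d was between 1.43 and 2.08 CPM in spleen, and Grik2 between 0.636 and 0.990 CPM. In thymus, Gabbr2 was between 0.247 and 0.897 CPM, beside a Gabbr1 level of at least 177 CPM.

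**Figure D5:**
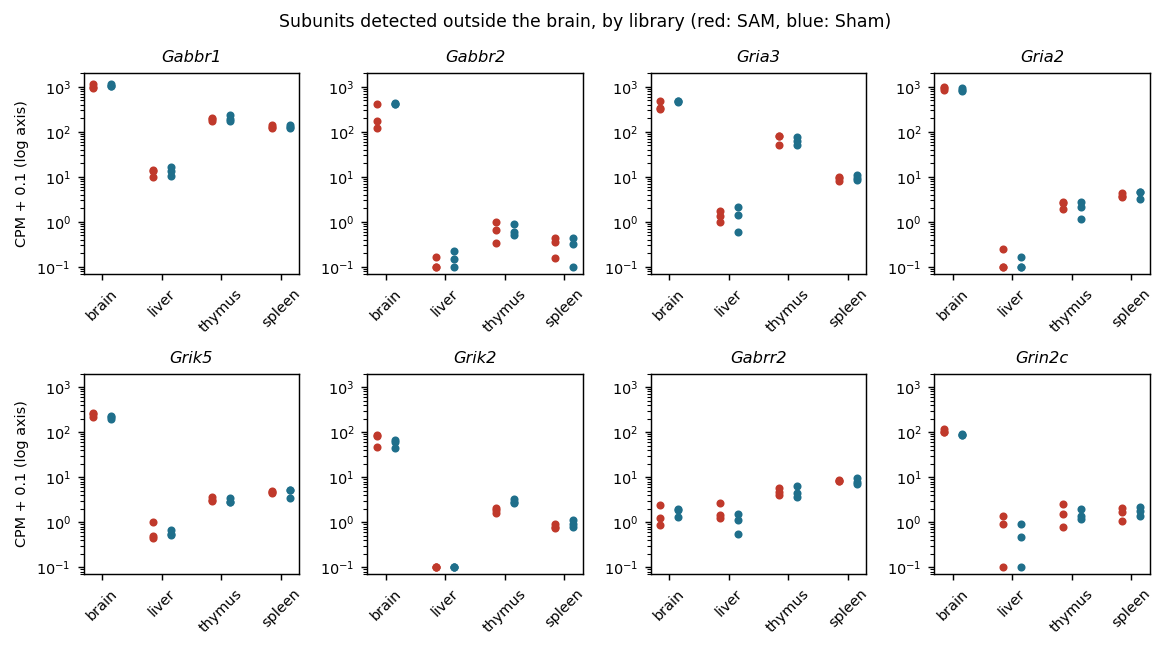
CPM + 0.1 (log axis) of 8 subunits in every library of brain, liver, thymus and spleen, scaled within each tissue, SAM in red and Sham in blue. Gabbr1 lies between 177 and 231 CPM in thymus, while Gabbr2 lies at or below 0.897 CPM, and Gabrr2 is higher in spleen than in brain.

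The 12 sham libraries were then fitted together to place each subunit between tissues. Of the 41 members tested, edgeR called 40 higher in brain than in liver, with 0 lower (background 40.1% higher and 41.3% lower), 39 higher and 1 lower than in thymus (40.3 and 42.2%), and 40 higher and 1 lower than in spleen (41.4 and 41.0%). These counts are no support for a difference, because 33 of the 41 passed the low-count filter only with the brain libraries included. That favours members that are higher in brain. The 8 that passed without the brain libraries were Gabbr1, Gabrr2, Gria2, Gria3, Grik2, Grik5, Grin2c and Grin2d. Where sham liver had 0 counts, the brain level was at least 3790-fold higher than in liver for Grin1 and at least 530-fold for Gabrb2, against a floor of 3 counts over the group and scaled over the 12 libraries. Gabbr1 was 894.9 ± 58.9 CPM in brain, 137 ± 20.5 in thymus, 100.4 ± 9.17 in spleen and 32.4 ± 6.65 in liver (mean ± SD, n = 3, scaled over the 12 libraries). Brain exceeded thymus by 2.71 ± 0.15 (SE) on the log2 scale, spleen by 3.16 ± 0.16 and liver by 4.79 ± 0.17, with adjusted p-values of 1.6e-09, 4.4e-10 and 1.6e-11. Gria3 was 383 ± 6.13 CPM in brain, 43.6 ± 9.63 in thymus, 7.31 ± 0.954 in spleen and 3.02 ± 1.78 in liver.

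Gabrr2 was the one member called lower in brain among the 41 tested. It was 1.31 ± 0.292 CPM in brain, 2.35 ± 1.26 in liver, 3.23 ± 1.03 in thymus and 6.22 ± 1.09 in spleen. Brain minus thymus was -1.31 ± 0.34 on the log2 scale (adjusted p = 0.00291), and brain minus spleen -2.25 ± 0.34 (adjusted p = 3.4e-05). Brain minus liver was -0.88 ± 0.40 (adjusted p = 0.0574) and turned to 0.57 when libraries were scaled by their totals alone, a scaling that moved the median of all genes between brain and liver to 1.37. Gabrq did not differ detectably between brain and thymus (0.05 ± 0.49, adjusted p = 0.937), at 0.578 ± 0.273 and 0.568 ± 0.315 CPM.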

How the data were processed

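Sequencing libraries were made from total RNA with a stranded mRNA kit, per the labels' protocols. The authors deposited whole-number counts per gene, not normalized. The build rn6 and STAR 2.2.1 are named, per the submitters' processing notes. Which program counted reads, with which strand setting and annotation, is not given in the sources used here, and overlapping genes may share reads.

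Tissue and animal number matched each column to its sample, with 0 columns of other samples. Each tissue was fitted alone on the whole table with edgeR 4.0.16 in R 4.3.3 (filterByExpr, TMM, quasi-likelihood test, Benjamini-Hochberg adjustment over all genes tested at 0.05). An exact permutation test of 3 against 3 libraries cannot go below p = 0.1. Groups that are apart have no overlap: the SAM libraries all exceed, or all lie under, the Sham libraries. Sham libraries of the 4 tissues were compared in 1 fit. The SE is the log2 fold change over the root of F. The chi-square per degree of freedom between replicates was 5.95 to 193, so none was counted as a copy. The labels number the animals and say no more of how the samples were taken, so p-values measure only the spread between these samples.

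Some members are counted but their own values are not reported here. Members and gene lists were chosen with earlier results of these data known. Members whose brain groups were apart or whose unadjusted p was under 0.05, and otherwise the one with the lowest p in its class, have values by library. Library values of Gria1, Grin2a, Grm3, Grik2, Gabra4, Gabra5, Gabrb1 and Gabra6 were added after they were seen, as were those of the pathway genes beyond the lowest p. Alternatives were DESeq2 1.42.0, RLE size factors, no low-count filter, leaving out libraries, 1 fit over 24 libraries, the animal number as a block and, chosen after seeing the data, library totals alone. Tests were tried on simulated counts first. Promoter sequences and gene order come from RefSeq tables of GRCr8, matched by symbol, with no coordinates set beside rn6.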

Additional observations from a re-analysis of the deposited data

How the results depend on the processing

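In brain, the count of members called was 0 under RLE size factors, no low-count filter and library totals alone, 1 with DESeq2 and 1 in the fit over all 24 libraries, and ranged from 0 to 22 when each library was left out. The count with groups apart ranged from 12 to 31 on leaving out each library, both highest without SAM 3, and was 21 with SAM 1 and SAM 2 both left out. In thymus, 20 members had at least 1 count in every library. With SAM 1 and SAM 2 both left out, the log2 fold change turned sign for Grik2 (-0.25), Grm4 (-0.036), Gabbr1 (0.048), Grik1 (-0.14), Gabra4 (0.037), Gabrr2 (0.56), Gria3 (0.044), Gabra5 (-0.69), Grin1 (0.029), Gabrd (0.24), Grin2d (-0.084), Grin2a (0.14), Gria1 (-0.32), Gria2 (-0.0041). Library totals alone turned it for Grin2b (0.028), Grin1 (0.046), Grm5 (0.010) in brain and Gria3 (-0.067) in liver, and no filter for Grik5 (0.0020) in spleen. Leaving out each library in turn gave values on both sides of 0 in brain for Gabrr2 (-0.75 to 0.10), Grin2b (-0.37 to 0.16), Grin1 (-0.071 to 0.011), Gabrg3 (-0.084 to 0.28), Gabrd (-0.39 to 0.067), Grm5 (-0.14 to 0.012), Grm8 (-0.39 to 0.042), Gabrq (-0.68 to 0.069), in liver for Gabbr1 (-0.28 to 0.035), Gria3 (-0.34 to 0.53), in thymus for Gabbr1 (-0.13 to 0.064), Grin2c (-0.39 to 0.50), Gabrr2 (-0.17 to 0.28), Gria2 (-0.028 to 0.58) and in spleen for Gabbr1 (-0.098 to 0.056), Grin2c (-0.41 to 0.085), Gabrr2 (-0.048 to 0.18), Gria3 (-0.15 to 0.043), Grik5 (-0.17 to 0.10), Gria2 (-0.27 to 0.014). None of these members was called in the main comparison, and the cause of the turns was not tested. The counts of members called, apart or detected stayed within 1.5 times their value in 84 comparisons with an alternative and moved further in 6. Many of the 84 set 0 called members against 0, which does not show that a result is stable.

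SAM and Sham animals share no numbers, so no paired analysis was possible within a tissue. For the sham tissue comparisons, the fit with the animal number as a replicate block called 40 members between brain and liver, 39 between brain and thymus and 40 between brain and spleen, against 40, 40 and 41 without it. Both sets of counts carry the limit given above, that 33 of the 41 members passed the filter only with the brain libraries included. Over 11 same-numbered pairs, deviations from the tissue means correlated at -0.0214 to 0.186 (median 0.0402), with 3 over 0.1, so the samples were treated as sharing only a number. Whether they are the same rats is not shown by this. With 3 libraries per group, and with SAM 1 and SAM 2 apart from SAM 3, the brain comparison cannot tell exposure from what sets those libraries apart. Values below 1 CPM rest on few counts.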
